A study of Mus musculus with 28 samples.

Results

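The response of tibialis anterior (TA) muscle to tamoxifen was compared between 2 mouse models of centronuclear myopathy. The quantity is a difference of log2 fold changes, tamoxifen against placebo in *Dnm2* S619L/+ mice (Dnm2SL) minus tamoxifen against placebo in *Bin1* mck-/- mice (Bin1KO), so that a positive value means a more positive response in Dnm2SL. It was computed for 15479 genes out of the 55359 that both count tables hold, from 16 of the 28 mice of the series, with 4 mice in each of the 4 groups. Dnm2SL mice are heterozygous for a missense mutation of *Dnm2*, and Bin1KO mice lack *Bin1* in muscle, where the muscle creatine kinase promoter drives the deletion. All mice were 8 weeks old and of the C57BL/6N strain, and tamoxifen was given as a supplement of the diet. The models belong to separate cohorts which differ in RNA input (300 ng in the Dnm2 cohort, 350 ng in the Bin1 cohort) and in fragmentation time (2 and 8 min), so model, cohort and library protocol cannot be told apart. Only changes within a cohort were therefore set against each other, never levels. The 8 wild-type (WT) mice of the Dnm2 cohort, 4 on placebo and 4 on tamoxifen, share no mouse with these groups and were fitted by themselves. Nothing in the labels says that the samples of a group came from separate litters or cages, so p-values measure the spread between these mice.

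Centronuclear myopathies are inherited muscle diseases in which nuclei lie in the middle of the fibers. *Dnm2* codes for dynamin 2, a GTPase that cuts membrane necks, and *Bin1* for amphiphysin 2, a membrane-curving protein that helps to form the T-tubules of muscle and binds dynamin. Tamoxifen binds estrogen receptors, which are ligand-activated transcription factors, and acts as an agonist or as an antagonist depending on the tissue. In bone of mice it acts largely as an agonist.

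The targeted genes were checked first. *Bin1* was at 35.7 to 62.6 CPM (read counts scaled to the library total after TMM normalization) in the 8 Bin1KO mice, against 527 to 568 CPM in the 4 placebo-treated WT mice of their own cohort (levels of the targeted genes were scaled over all 28 mice, all others over the mice of each fit). *Dnm2* was at 57.4 to 83.2 CPM in Bin1KO and at 60.9 to 69.2 CPM in Dnm2SL mice. The tamoxifen effect on *Bin1* was -0.49 (SE 0.15, adjusted p = 0.107) on the log2 scale in Dnm2SL and -0.45 (SE 0.15, adjusted p = 0.105) in Bin1KO, with a difference of -0.04 (95% interval -0.49 to 0.41). For *Dnm2* the difference was 0.21 (-0.06 to 0.48).

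Between 21520228 and 41940004 reads were counted on genes per Dnm2SL mouse and between 24671835 and 33654116 per Bin1KO mouse. Several features of single mice touch the results, and bone transcripts divided the treated mice. *Ibsp*, which codes for bone sialoprotein, was at 87.6, 225, 301 and 2.52 CPM in treated Dnm2SL mice 1 to 4 and at 0.092, 195, 0 and 0 CPM in treated Bin1KO mice 1 to 4, while no placebo-treated mutant passed 0.657 CPM. The 4 treated WT mice all had high summed levels of 20 osteoblast and osteocyte markers (1380 to 3600 CPM, placebo 33.4 to 63.4). Placebo-treated Dnm2SL mice 2 and 3 were males by *Xist* and *Ddx3y*, and every other mutant was female. Placebo-treated Dnm2SL mouse 4 had 690 summed CPM of interferon-response genes, against 79.9 to 131 CPM in the other 15 mutants. The 8 skeletal muscle markers were tested in all, and summed to between 78900 and 179000 CPM in the 16 mutants.

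Of the 15479 genes, 2 differed between the models in their response to tamoxifen at an adjusted p under 0.05 (0.0129%; edgeR quasi-likelihood test with Benjamini-Hochberg adjustment). *Gpc4* rose in Dnm2SL and fell in Bin1KO, and *AC109619.1* rose in both models, with the larger rise in Bin1KO. At an adjusted p under 0.1 there were 16 genes, 9 above and 7 below 0, and at an unadjusted p under 0.05 there were 1448 above (9.35%) and 1664 below 0 (10.8%). DESeq2 called 334 genes above (2.56%) and 272 below (2.08%) of the 13050 for which it gave an adjusted p. The count rested on the treated mice named above. Without treated Bin1KO mouse 2, edgeR called 1011 genes, and without treated Dnm2SL mouse 4 it called 493, whereas leaving out any of the other 14 mice gave 0 to 7. With sex as a covariate or among females alone edgeR called 0, with 2023 and 2103 genes at an unadjusted p under 0.05. Both males were in the placebo-treated Dnm2SL group. In both fits the level of that group rested on its mice 1 and 4, so the 2 fits are not separate checks. With the osteoblast marker level of each mouse as a covariate it called 4, with 1113 genes at an unadjusted p under 0.05. That level itself rose with tamoxifen in Dnm2SL, so the covariate can take out part of the difference under test. Of the 1011, 1007 had the same sign in the fit of all 16 mice. That fit holds the same mice plus treated Bin1KO mouse 2, so such agreement is favored in advance.

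The median SE of a difference was 0.30 on the log2 scale, and the 95% interval lay within 1 log2 unit of 0 for 7394 genes (47.8%). In counts simulated from these mice, the test recovered 84% of 4-fold and 27% of 2-fold model-specific changes. The 200 changed genes had a mean log2 CPM above 1, and genes were drawn independently. Shifts of many genes in a single mouse were not simulated, so these shares do not cover low or mouse-driven genes. An absent call is therefore no evidence of an equal response for the majority of genes.

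*Gpc4* (ENSMUSG00000031119) codes for glypican 4, a heparan sulfate proteoglycan of the cell surface. It was at 26.2, 24, 22.2 and 25.2 CPM in placebo-treated and at 33.4, 31.0, 35.4 and 35.3 CPM in treated Dnm2SL mice. In Bin1KO it was at 30.4, 26.2, 26.3 and 27.5 CPM on placebo and at 21.8, 17.5, 22.2 and 16.9 CPM on tamoxifen. The groups did not overlap in either model, and the direction was opposite. *Gpc4* rose by 0.47 on the log2 scale in Dnm2SL (SE 0.10, adjusted p = 0.0462) and fell by 0.49 in Bin1KO (SE 0.10, adjusted p = 0.0225), a difference of 0.96 (95% interval 0.65 to 1.27, adjusted p = 0.0486). It was the single gene called in opposite directions in the 2 models. Its call in Dnm2SL passed in 12 of 30 alternatives, with an adjusted p of up to 0.261, and its call in Bin1KO in 25 of 30. In WT it rose by 0.73 (SE 0.12, adjusted p = 0.00171). The size of the difference stayed between 0.89 and 1.05 in all 29 alternative fits, and its adjusted p, which ranged from 1.43e-05 to 0.245, passed the threshold in 10 of them.

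The promoter of *Gpc4* is shown because this gene responded in opposite directions, and that of *Mapkapk3*, a kinase of the p38 stress pathway, as a gene that fell in both models and holds the same half-site. *Mapkapk3* was chosen after the motif search, since no half-site was found for the other named shared genes of the table (*Ldhd*, *Alox12*, *Popdc2*, *Nek6* and *Gpx3*), and its second window, at chr9:107289347-107289646, holds none. Both printed windows run from 250 bases before to 50 bases after an annotated start (RefSeq, GRCm38.p6, minus strand) and lie at chrX:52164874-52165173 and chr9:107289828-107290127. Capitals mark the estrogen response element half-site AGGTCA, read on either strand. The match starts at base 80 of the *Gpc4* window and at base 293 of the *Mapkapk3* window.
Gpc4: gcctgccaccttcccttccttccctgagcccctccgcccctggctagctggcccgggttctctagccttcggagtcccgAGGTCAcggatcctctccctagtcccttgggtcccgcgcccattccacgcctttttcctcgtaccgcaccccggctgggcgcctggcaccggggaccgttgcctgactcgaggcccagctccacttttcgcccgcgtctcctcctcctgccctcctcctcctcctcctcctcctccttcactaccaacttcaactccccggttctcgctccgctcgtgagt
Mapkapk3: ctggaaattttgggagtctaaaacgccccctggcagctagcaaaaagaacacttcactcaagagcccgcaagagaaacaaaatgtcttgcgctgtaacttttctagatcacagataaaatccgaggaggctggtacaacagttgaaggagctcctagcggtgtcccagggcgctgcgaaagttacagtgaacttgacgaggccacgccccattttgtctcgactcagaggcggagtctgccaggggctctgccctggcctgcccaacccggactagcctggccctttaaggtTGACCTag

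Such a match is common. The half-site was in 16.3% of the 32851 promoters of the table and in 12.7% of the 14400 promoters of genes tested here. It was in 20.3% of 79 promoters of genes called higher in Dnm2SL and in 11.9% of 168 promoters of genes called higher in Bin1KO. For genes called lower the shares were 14.9% of 47 in Dnm2SL and 18.8% of 240 in Bin1KO. The full palindromic estrogen response element was in 1 promoter of a tested gene and in none of a called gene. The RUNX core TGTGGT was in 6.33% and 8.93% of the promoters called higher in Dnm2SL and Bin1KO, against 12.6% of tested ones, the AP-1 site TGANTCA in 6.33% and 5.95% against 5.44%, and the E-box CANNTG in 68.4% and 61.3% against 64.9%. Both strands were read, and a half-site may lie within a full element. These shares are descriptions.

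*AC109619.1* (ENSMUSG00000117901) is a noncoding transcript annotated within *Macrod1*, antisense to it, and lies just downstream of *Flrt1* on the strand of *Flrt1*. Reads of *Flrt1* that run past its annotated end would be counted on it, which was not tested. It had 10 to 37 reads per placebo-treated Dnm2SL mouse and 2 to 5 reads per placebo-treated Bin1KO mouse. Under tamoxifen it reached 16.8, 11.1, 14.5 and 16.6 CPM in Dnm2SL and 29.0, 14.8, 39.7 and 42.1 CPM in Bin1KO. All 8 treated mice were far above all 8 placebo-treated mice. The mean CPM was 22.6-fold higher with tamoxifen in Dnm2SL and 331-fold higher in Bin1KO. The fitted change was 4.34 (SE 0.33, adjusted p = 4.84e-06) and 7.58 (SE 0.42, adjusted p = 1.36e-08) on the log2 scale, a difference of -3.24 (95% interval -4.41 to -2.07, adjusted p = 0.0380). Since the placebo level in Bin1KO rests on 12 reads over 4 mice, the size of this difference depends on the fit. It ranged from -3.90 to -2.56 in 28 alternatives, 12 of which passed the threshold.

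*Flrt1*, which codes for a leucine-rich adhesion protein that binds FGF receptors, also rose in both models. It was at 0.483 to 2.16 CPM on placebo and at 35.7, 21.7, 31.0 and 46.4 CPM on tamoxifen in Dnm2SL. In Bin1KO it was at 0.405 to 1.02 CPM on placebo and at 38.5, 31.6, 110 and 41.3 CPM on tamoxifen. The log2 changes of 4.83 (adjusted p = 0.00106) and 6.13 (adjusted p = 0.000167) differed by -1.30 (95% interval -2.81 to 0.22, adjusted p = 0.300) and so were not distinguishable between the models at this spread.

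**Figure D1:**
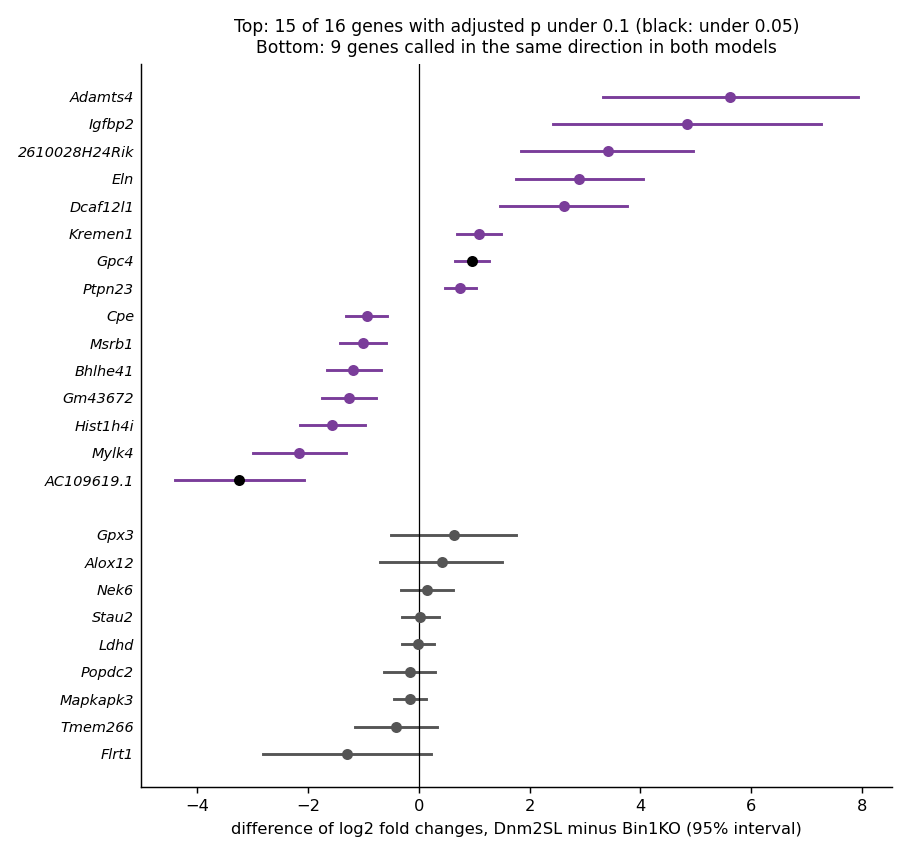
Difference of the tamoxifen effect between the models (Dnm2SL minus Bin1KO, log2 scale) with its 95% interval. The upper block holds 15 of the 16 genes with an adjusted p under 0.1, of which *Gpc4* (0.96) and *AC109619.1* (-3.24) passed 0.05 and are drawn in black; the lower block holds 9 of the genes called in the same direction in both models, whose intervals all include 0.

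The other 14 genes had an adjusted p between 0.05 and 0.1; those named here were chosen after their values were seen and are described without a call. Of all 16, 13 had effects of opposite sign in the 2 models, a share to be read beside 86.6% of the genes with an unadjusted p under 0.05, since a small p for the difference favors opposite signs. *Kremen1*, a receptor that restrains Wnt signaling with Dickkopf, was at 61.8 to 88.4 and 107 to 140 CPM in Dnm2SL and at 145 to 162 and 92.0 to 131 CPM in Bin1KO (difference 1.08, SE 0.18, adjusted p = 0.0823). The 2 groups of each model were apart.

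Several genes of the 16 code for secreted or matrix proteins, named after their values were seen. *Eln* codes for elastin and was at 48.7, 28.4, 52.3 and 39.0 CPM on placebo and 150, 168, 178 and 88.9 CPM on tamoxifen in Dnm2SL, and at 98.5, 229, 109 and 191 CPM against 83.5, 122, 47.0 and 37.5 CPM in Bin1KO (difference 2.90, SE 0.53). The treated mice were all higher in Dnm2SL, while the groups overlapped in Bin1KO. *Adamts4*, a protease that cleaves aggrecan, was at 0 to 1.27 CPM on placebo and at 9.90, 13.4, 14.5 and 1.42 CPM on tamoxifen in Dnm2SL, with the low value in mouse 4. In Bin1KO it was at 1.72 to 4.25 CPM on placebo and 0.424 to 1.47 CPM on tamoxifen (difference 5.63, SE 1.08). *Igfbp2*, a binding protein of insulin-like growth factors, was at 0.469 to 1.37 CPM and 2.07 to 19.4 CPM in Dnm2SL but under 0.5 CPM in every Bin1KO mouse (difference 4.84, SE 1.14). *Eln*, *Adamts4* and *Igfbp2* had an adjusted p of 0.0922 each.

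Below 0, *Mylk4*, a kinase of the myosin light chain kinase family, was at 851 to 1150 CPM on placebo and 470, 528, 589 and 877 CPM on tamoxifen in Dnm2SL. In Bin1KO it was at 485 to 638 CPM on placebo and 657, 1690, 2230 and 1600 CPM on tamoxifen, where it rose by 1.48 on the log2 scale (SE 0.28, adjusted p = 0.0149). The difference was -2.16 (SE 0.40, adjusted p = 0.0886). *Hist1h4i*, a histone H4 gene, rose in Bin1KO from 5.30 to 6.67 CPM up to 8.87 to 15.6 CPM and was at 8.34 to 10.0 against 4.31 to 8.32 CPM in Dnm2SL (difference -1.56, adjusted p = 0.0823). *Cpe*, the carboxypeptidase that trims peptide hormones, differed in another way, since it fell in Dnm2SL from 481 to 666 CPM down to 269 to 327 CPM and was at 267 to 315 against 237 to 320 CPM in Bin1KO (difference -0.94, adjusted p = 0.0886). *Msrb1*, a selenoprotein that repairs oxidized methionine, rose in Bin1KO by 0.72 (adjusted p = 0.0149) and had a value of -0.28 (adjusted p = 0.287) in Dnm2SL. Further genes of the 16 were *Ptpn23* (0.75), *Dcaf12l1* (2.62), *2610028H24Rik* (3.41), *Gm43672* (-1.26) and the clock gene *Bhlhe41*, which is described with its list.

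**Figure D2:**
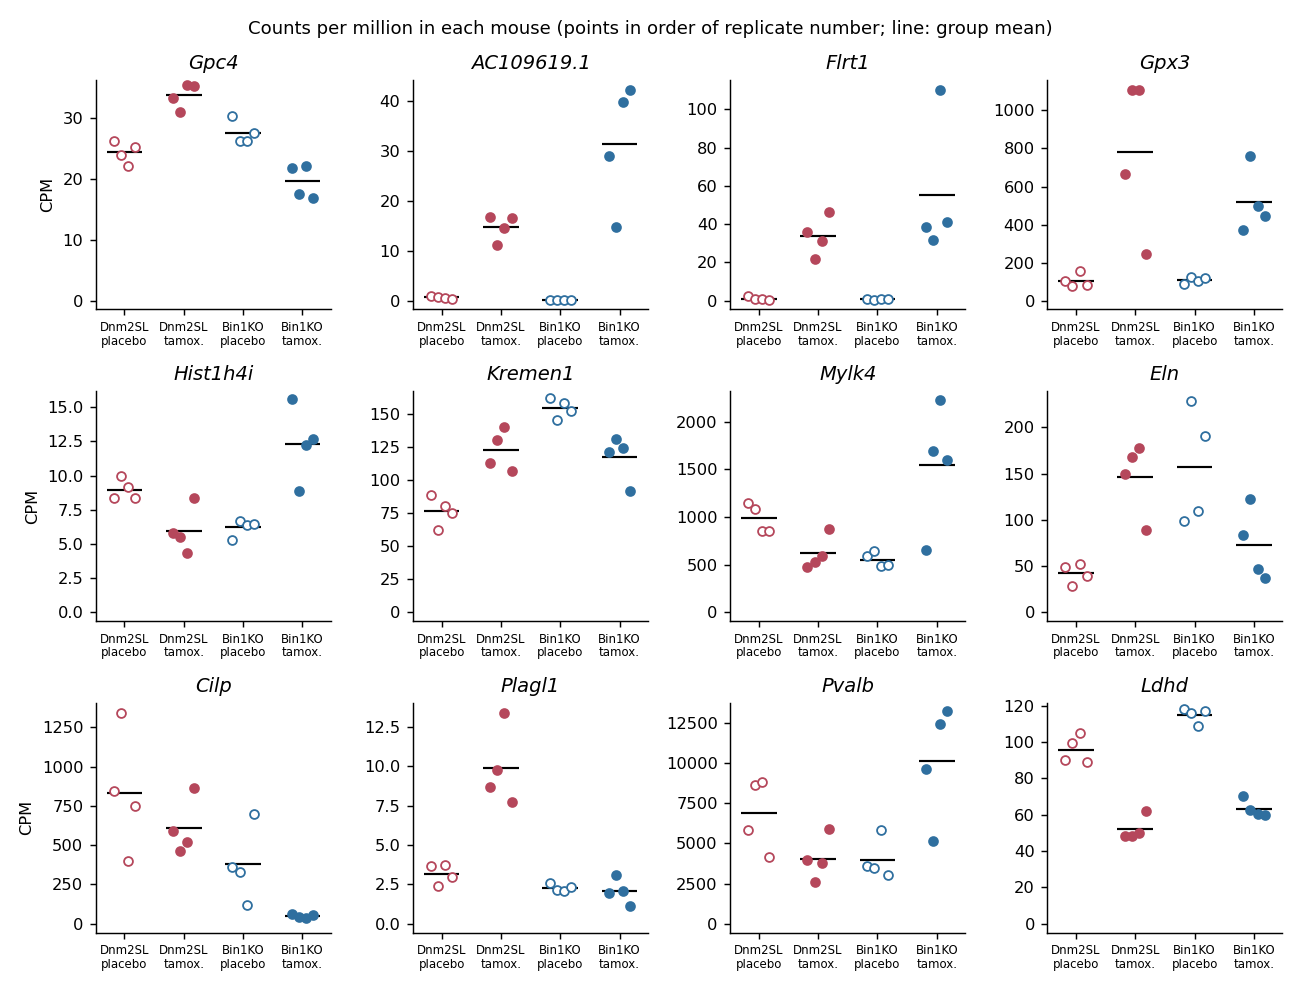
CPM of 12 genes in each of the 16 mutant mice, with placebo as open and tamoxifen as filled points and the group mean as a line; each axis starts at or just under 0. *Gpc4* and *Kremen1* were higher with tamoxifen in Dnm2SL and lower in Bin1KO, *Hist1h4i* was the reverse, *AC109619.1*, *Flrt1* and *Gpx3* were higher in all 8 treated mice, and *Ldhd* was lower in all 8.

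Asked of complete separation instead of a fitted test, 21 genes (0.136%) were higher in every treated Dnm2SL mouse and lower in every treated Bin1KO mouse than in their placebo groups, and 15 (0.0969%) the reverse. Separation in the same direction was more frequent, with 59 genes (0.381%) higher and 89 (0.575%) lower in both models. The 21 included, beside *Gpc4*, *Kremen1*, *Adamts4* and *Igfbp2*, matrix and adhesion genes that were chosen after their values were seen, such as *Fbn1* (fibrillin 1, difference 2.52), *Vcan* (versican, 2.28), *Col14a1* (2.5) and *Itga5* (integrin alpha 5, 1.0). For *Igfbp2* the Bin1KO groups were apart only at levels near 0. The 15 included *Hist1h4i* and the ESCRT genes *Chmp4b* (-0.49) and *Chmp6* (-0.54), which act in membrane scission. Of these 36 genes, 28 were called by DESeq2 for the difference and 1 by edgeR, and all 36 had an edgeR unadjusted p under 0.05. Opposite separation in the same mice fixes a small p in advance, so these counts add no separate evidence.

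Within the models, tamoxifen changed 139 genes in Dnm2SL, 85 higher (0.549%) and 54 lower (0.349%), and 419 in Bin1KO, 197 higher (1.27%) and 222 lower (1.43%). These counts also rested on single mice, with 1101 calls in Dnm2SL without treated Dnm2SL mouse 4 and 22 to 525 without another mouse, and 810 in Bin1KO without treated Bin1KO mouse 2 and 125 to 552 without another. The calls shared 25 genes, which is 18% of those of Dnm2SL and 5.97% of those of Bin1KO. Of the 25, 12 were higher in both, 12 lower in both and *Gpc4* opposite. The remaining 508 genes were called in 1 model only, and edgeR called 0 of these for the difference. At an unadjusted p under 0.05 there were 369 (72.6%), beside 20.1% of all genes. DESeq2 called 169 of the 508, beside 606 of all genes. The 508 were picked by the size of 1 term of the difference in the same mice, so raised shares are built in. The sign was the same in Bin1KO for 80.6% of the Dnm2SL calls and in Dnm2SL for 72.3% of the Bin1KO calls, beside 49.1% of all genes. Across genes, which are not independent, the effects of the 2 models had a Pearson r of 0.30 and a Spearman rho of 0.04.

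**Figure D3:**
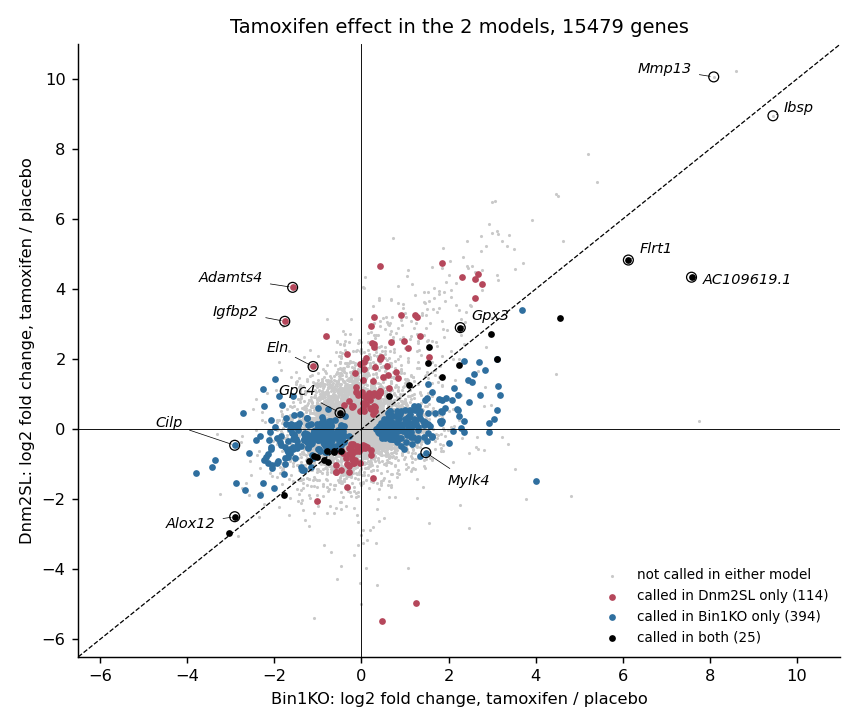
Log2 fold change with tamoxifen in Bin1KO (x) and Dnm2SL (y) for 15479 genes, colored by the model in which they were called, with the line of equal effects dashed. *Flrt1* and *AC109619.1* lie far up in both models, the bone genes *Ibsp* and *Mmp13* lie higher still without a call, and *Gpc4* sits near the origin between a positive and a negative effect.

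Genes that moved alike in both models were estimated well enough to bound their difference. *Ldhd*, the mitochondrial D-lactate dehydrogenase, was at 88.7 to 105 CPM on placebo and 48.1, 48.3, 49.8 and 62.0 CPM on tamoxifen in Dnm2SL, and at 109 to 118 and 59.8 to 70.3 CPM in Bin1KO. It fell by 0.88 and by 0.86 on the log2 scale, a difference of -0.02 (95% interval -0.31 to 0.28). *Stau2*, an RNA-binding protein, fell by 0.61 and by 0.64 (interval of the difference -0.31 to 0.37), and *Mapkapk3* fell by 0.63 and by 0.48 (-0.44 to 0.13). *Popdc2*, a cAMP-binding membrane protein of muscle, fell by 0.93 and by 0.76 (-0.62 to 0.30). The Dnm2SL calls of *Stau2*, *Popdc2* and *Mapkapk3* passed in 20, 24 and 28 of 30 alternatives, and their Bin1KO calls in 30, 27 and 28. Those of *Ldhd* and *Nek6* passed in all 30 in both models. *Nek6*, a mitotic kinase, rose from 5.47 to 8.30 CPM up to 14.9 to 17.8 CPM in Dnm2SL and from 9.21 to 12.0 CPM up to 19.5 to 28.9 CPM in Bin1KO, by 1.25 and 1.1 on the log2 scale (-0.32 to 0.62).

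Wider intervals were left for the remaining shared genes. *Gpx3*, the extracellular glutathione peroxidase, was at 78.2 to 154 CPM on placebo and 668, 1110, 1110 and 244 CPM on tamoxifen in Dnm2SL, and at 86.3 to 124 and 373, 763, 500 and 447 CPM in Bin1KO. Its log2 changes of 2.90 (adjusted p = 0.00559) and 2.27 (adjusted p = 0.0104) differed by 0.63 (-0.50 to 1.76). *Alox12*, the arachidonate lipoxygenase of platelets, fell from 2.81 to 9.64 CPM down to 0.744 to 1.58 CPM in Dnm2SL and from 5.13 to 10.7 CPM down to 0.655 to 1.46 CPM in Bin1KO (-0.70 to 1.51). *Tmem266*, a voltage-sensing membrane protein, rose by 1.83 and 2.25 on the log2 scale (-1.16 to 0.32). Of the 24 genes called in the same direction, 1 had an unadjusted p under 0.05 for the difference. Their selection by 2 called effects of the same sign in the same mice favors a small difference.

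The gene lists were counted at an unadjusted p under 0.05, since edgeR called no member of a list for the difference. Their shares are read against 9.35% of all genes above and 10.8% below 0. DESeq2 calls are given with the matrix, erythroid, fast-fiber, clock and imprinted lists. In other lists it called members above 0 for osteoclast (2) and osteoblast, tendon, macrophage, fatty acid, heat shock and estrogen genes (1 each). Below 0 it called unfolded protein (3), glycolysis (2), and osteoblast, tendon, triad and mitochondrial DNA genes (1 each). Extracellular matrix had a high median. Of 20 genes of fibroblasts and collagen matrix, 20 had a difference above 0 and 13 passed, with a median of 2.31 against -0.02 over all genes. DESeq2 called 2 of them. The summed level was 4820, 5000, 3950 and 3710 CPM on placebo and 14800, 25100, 30900 and 4390 CPM on tamoxifen in Dnm2SL, and 4080, 6470, 4040 and 10500 against 3840, 13900, 2550 and 807 CPM in Bin1KO. Treated Dnm2SL mouse 4 lay within its placebo group, and treated Bin1KO mouse 2 was the highest mouse of its model. These are the same mice that stood apart in bone transcripts. *Loxl1*, a lysyl oxidase that crosslinks elastin, was at 16.8 to 25.7 and 28.4 to 75.1 CPM in Dnm2SL and at 39.9 to 71.0 and 8.39 to 48.3 CPM in Bin1KO (difference 2.21, SE 0.61, adjusted p = 0.134). *Fn1* (fibronectin) differed by 3.13 (SE 1.0) and *Bgn* (biglycan) by 2.47 (SE 0.81). With the osteoblast marker level of each mouse as a covariate, 3 of the 20 passed and the median was 0.73. Since that level itself changed with tamoxifen, smaller differences with this covariate, here and below, are favored in advance. List counts from alternative fits, here and below, have a background of their own. Over all genes, 1113 passed with this covariate, 2023 with sex as a covariate and 2103 among females. Without treated Bin1KO mouse 2 the number was 4158, and in the main fit it was 3112. With sex as a covariate 4 passed and among females 3, with a median of 2.34 in both. Without treated Bin1KO mouse 2 edgeR called 15 of the 20, and without treated Dnm2SL mouse 4 it called 1. Leaving out the highest treated Bin1KO mouse or the lowest treated Dnm2SL mouse of this list raises its difference by construction.

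Bone lists followed the same mice. The 20 osteoblast and osteocyte markers summed to 21.4 to 37.7 CPM on placebo and to 1030, 2240, 2790 and 89.1 CPM on tamoxifen in Dnm2SL, and to 37.5 to 46.5 and 34.5, 1020, 25.4 and 24 CPM in Bin1KO. Of 17 tested, 2 passed above 0 (median 1.68). Without treated Bin1KO mouse 2, 10 passed, edgeR called 4 and the median was 4.66. That mouse was singled out for its high bone transcripts, so leaving it out raises the difference of bone genes by construction. *Mmp13*, a collagenase of bone, was at 463, 1030, 1090 and 13.8 CPM in treated Dnm2SL and at 1.1, 305, 0.041 and 0 CPM in treated Bin1KO mice, and its difference of 1.97 (95% interval -5.78 to 9.72) was not distinguishable from 0. The difference of *Mmp13* without treated Bin1KO mouse 2 was 9.47 (edgeR adjusted p = 0.0553). *Alpl*, the alkaline phosphatase of mineralizing cells, was higher in all 4 treated Dnm2SL mice (43.9 to 203 CPM, placebo 8.75 to 17.9), where it was called (log2 change 3.20, adjusted p = 0.0261). In Bin1KO it was at 25.1 to 40.3 CPM on placebo and 24.8, 94.6, 19 and 20.7 CPM on tamoxifen (difference 2.90, SE 0.78, adjusted p = 0.132). Of 11 osteoclast genes, 3 passed above 0 (median 2.30), led by *Tnfrsf11a*, the RANK receptor, with 2.30 (SE 0.66). With treated Bin1KO mouse 2 left out, 10 of the 11 passed and edgeR called 6. Of 10 tested cartilage genes 1 passed, below 0 (*Col9a1*, -2.33). Fewer cells of a type and less RNA per cell cannot be told apart in these bulk samples. The part of bone-related tissue in the results was not tested, and the covariate cannot decide it, since it changed with tamoxifen itself.

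**Figure D4:**
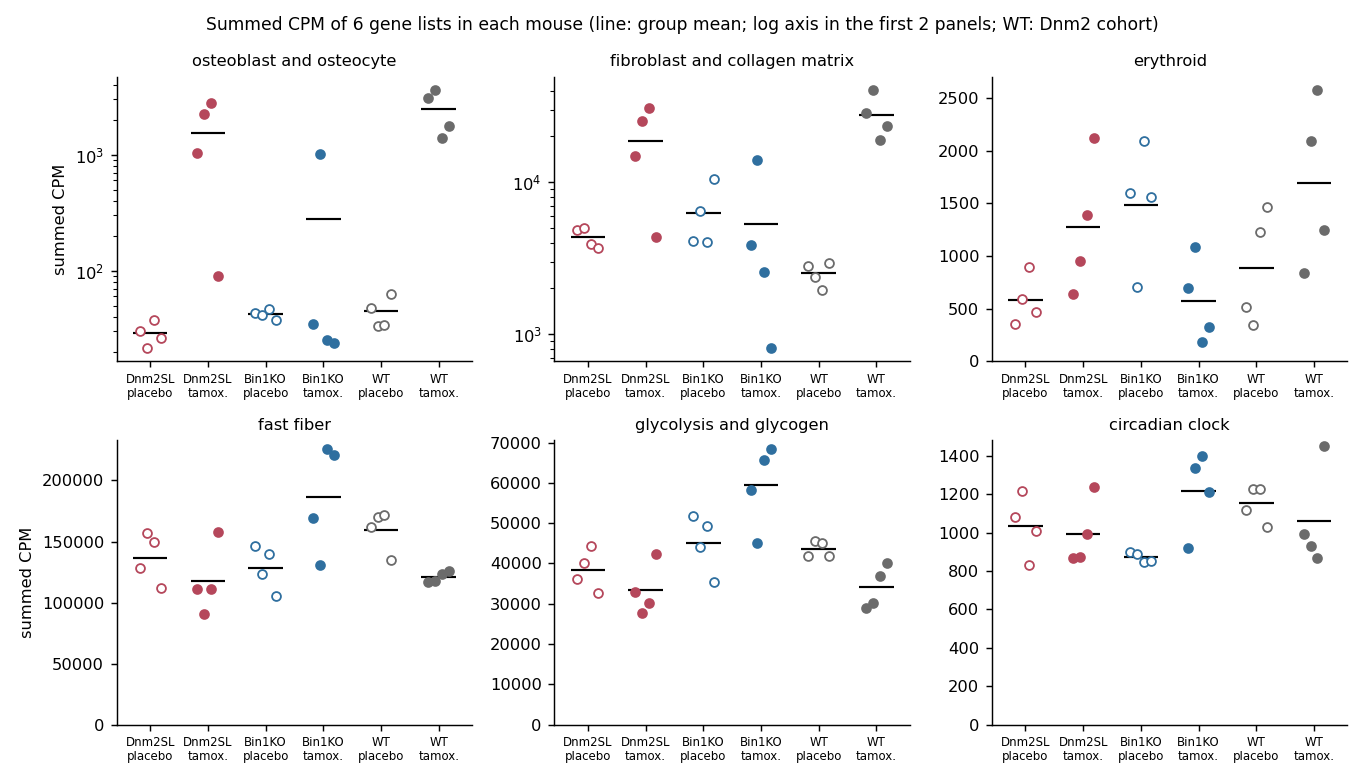
Summed CPM of 6 gene lists in each mutant mouse and in the WT mice of the Dnm2 cohort, with open points for placebo, filled points for tamoxifen and a line for the group mean; the first 2 panels have a log axis. In the osteoblast and matrix panels treated Dnm2SL mouse 4 stands below and treated Bin1KO mouse 2 above the other treated mice of its group, while the group means of the erythroid, fast fiber and glycolysis panels move in opposite directions in the 2 models.

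Red cell transcripts had the highest median of any list. All 7 erythroid genes passed above 0 (median 2.55), DESeq2 called 6 of them, and all 7 passed with the osteoblast covariate (median 2.30) and among females (median 2.91). The sum was 354, 594, 897 and 467 CPM on placebo and 638, 955, 1390 and 2120 CPM on tamoxifen in Dnm2SL, and 1600, 708, 2090 and 1560 against 697, 1090, 180 and 323 CPM in Bin1KO. The group means moved up in Dnm2SL and down in Bin1KO, with overlap of the groups in both. Without treated Bin1KO mouse 2 edgeR called 6 of the 7. That mouse had the highest sum of its treated group, so leaving it out raises the difference by construction. *Hbb-bt*, a beta globin, was at 35.2 to 94.7 and 71.4 to 238 CPM in Dnm2SL and at 90.3 to 258 and 21.3 to 117 CPM in Bin1KO (difference 2.62, SE 0.73, adjusted p = 0.134). *Alas2*, the first enzyme of heme synthesis in red cells, differed by 2.89 (SE 0.81). Globin genes have near-identical copies whose reads may be split. The part of blood left in the muscle in this result was not tested.

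Fast-fiber genes went the other way. Of 13, 10 passed below and 1 above 0 (median -0.86), with 5 called below and 1 above by DESeq2. The median effect was -0.30 in Dnm2SL and 0.59 in Bin1KO. *Pvalb*, the calcium-binding parvalbumin of the fastest fibers, was at 5820, 8640, 8830 and 4130 CPM on placebo and 3940, 2580, 3760 and 5880 CPM on tamoxifen in Dnm2SL. In Bin1KO it was at 3610, 3470, 5850 and 3040 CPM on placebo and 9610, 5140, 12400 and 13200 CPM on tamoxifen, where it rose by 1.34 on the log2 scale (SE 0.33, adjusted p = 0.0406). The difference was -2.10 (SE 0.46, adjusted p = 0.106). *Actn3*, the actinin of fast fibers, differed by -1.40 (SE 0.41). *Myh2*, the myosin of IIA fibers, which are less fast, was the member above 0, at 293 to 854 and 752 to 1130 CPM in Dnm2SL and at 2840 to 3410 and 949 to 2240 CPM in Bin1KO (difference 1.70, SE 0.44, adjusted p = 0.131). The Bin1KO groups did not overlap for *Myh2*. Among females 4 of the 13 passed below 0, with the osteoblast covariate 2 (median -0.38), and without treated Bin1KO mouse 2 edgeR called 7 below and 1 above. That mouse had the lowest summed level of the list in its treated group, so leaving it out makes the difference more negative by construction.

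Energy metabolism gave smaller values. Of 21 identifiers of 20 glycolysis and glycogen genes, 13 passed below and 0 above (median -0.59), with 4 among females and 0 with the osteoblast covariate (median -0.26). *Pkm*, the muscle pyruvate kinase, differed by -0.74 (SE 0.22), *Gpi1* by -0.63 (SE 0.20) and *Pgk1* by -0.87 (SE 0.28). Of 36 subunits of the nuclear respiratory chain, 35 lay below 0 and 9 passed (median -0.32), while 0 passed with the osteoblast covariate, with sex as a covariate or among females (medians -0.14, -0.18 and -0.17). *Ndufa4* and *Cox8b* differed by -0.61 (SE 0.22) and -0.59 (SE 0.21). In fatty acid and ketone oxidation 21 of 23 lay above 0 and 4 passed (median 0.29). *Lpl*, lipoprotein lipase, fell in Bin1KO from 462 to 656 CPM down to 250 to 416 CPM and was at 307 to 457 against 343 to 474 CPM in Dnm2SL (difference 0.86, SE 0.25, adjusted p = 0.135). *Bdh1*, a ketone body enzyme, was at 43.1 to 62.1 and 8.27 to 39.0 CPM in Bin1KO and at 1.73 to 5.04 and 2.49 to 8.06 CPM in Dnm2SL (difference 1.58, SE 0.62).

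The circadian clock had the lowest median of any list. Of 16 genes, 8 passed below and 2 above 0 (median -0.90), with 5 below and 1 above called by DESeq2. In Bin1KO 3 rose, all clock-output or repressor genes. *Bhlhe41*, a repressor of the clock, was at 19.3 to 21.1 CPM on placebo and 32.6, 42.3, 34.1 and 33.5 CPM on tamoxifen in Bin1KO (log2 change 0.81, adjusted p = 0.0164), and at 25.8 to 49.9 against 26.7 to 33.6 CPM in Dnm2SL. Its difference was -1.18 (SE 0.23, adjusted p = 0.0922). *Hlf* and *Tef*, output factors of the PAR bZIP family, rose in Bin1KO by 2.00 (adjusted p = 0.0260) and 0.73 (adjusted p = 0.0324) and had values of -0.39 and -0.29 in Dnm2SL, differences of -2.39 (SE 0.60) and -1.02 (SE 0.24). The members that passed above 0, named after their values were seen, were *Npas2* (3.54) and *Clock* (0.74), which code for activators of the loop, while *Dbp* (-2.49), a further PAR bZIP factor, and *Per3* (-1.73) passed below 0. Without treated Bin1KO mouse 2 edgeR called 3 members below and 1 above 0. Among females 10 members passed below and 3 above 0, and with the osteoblast covariate 8 and 2. Whether these were the same members was not compared. The hour of sampling was not given in the labels, and its part was not tested.

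Stress lists held fewer members past the threshold. Of 10 heat shock and chaperone genes, 10 lay above 0 and 3 passed (median 0.57). *Hsp90aa1* fell in Bin1KO from 7.13 to 17.7 CPM down to 4.35 to 6.02 CPM (log2 change -1.23, adjusted p = 0.0195) and was at 6.51 to 10.3 against 6.61 to 12.3 CPM in Dnm2SL (difference 1.35, SE 0.36, adjusted p = 0.131). Of 15 genes of the unfolded protein and integrated stress response, 4 passed below and 0 above. *Chac1*, a glutathione-degrading enzyme induced by ATF4, rose in Bin1KO from 8.97 to 18.1 CPM up to 40.7, 58.8, 76.5 and 76.1 CPM (log2 change 2.24, adjusted p = 0.0219), while treated Dnm2SL mice were at 5.49, 17.5, 14.7 and 40.9 CPM (difference -1.85, SE 0.62, adjusted p = 0.152). *Herpud1* and *Dnajb9* of the endoplasmic reticulum differed by -0.61 (SE 0.17) and -0.74 (SE 0.22). Of 15 interferon-response genes 7 passed below 0 with sex as a covariate and 7 among females, and 1 in the fit of all 16 mice. This was *Igtp* (-3.58, SE 1.17), at 220 CPM in placebo-treated Dnm2SL mouse 4 and at 5.97 to 13.4 CPM in the other 15 mutants. In the fits with sex and of females, that mouse was 1 of only 2 that set the placebo level of Dnm2SL.

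Estrogen-related and imprinted genes held individual members of interest. Of 12 tested estrogen receptors and targets, 3 passed above 0. *Esrrb* and *Esrrg*, orphan receptors of oxidative metabolism, fell in Bin1KO by 1.32 (adjusted p = 0.0154) and 0.95 (adjusted p = 0.0245) and had values of -0.13 and -0.14 in Dnm2SL (differences 1.19, SE 0.37, and 0.82, SE 0.29). *Esrrb* was at 10.4 to 17.3 CPM on placebo and 2.93 to 7.67 CPM on tamoxifen in Bin1KO and at 3.79 to 4.97 against 3.20 to 5.39 CPM in Dnm2SL. Of 12 imprinted growth genes 5 passed above 0 and DESeq2 called 3. *Plagl1*, a zinc finger regulator of the imprinted network, rose in every treated Dnm2SL mouse, from 2.38 to 3.70 CPM up to 8.70, 9.76, 13.4 and 7.73 CPM (log2 change 1.61, adjusted p = 0.00914), and was at 2.10 to 2.57 against 1.12 to 3.12 CPM in Bin1KO. Its difference was 1.76 (SE 0.37, adjusted p = 0.106). *H19* and *Mest* differed by 1.29 (SE 0.41) and 2.43 (SE 0.77).

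Among other members of interest, *Cilp*, a matrix protein of cartilage and tendon, fell in Bin1KO from 120 to 700 CPM down to 36.4 to 60.3 CPM (log2 change -2.91, SE 0.47, adjusted p = 0.00735), and was at 400 to 1340 against 460 to 862 CPM in Dnm2SL (difference 2.46, SE 0.62, adjusted p = 0.131). *Sln* (sarcolipin, an inhibitor of the calcium pump) was at 16 to 114 and 8.05 to 19.1 CPM in Bin1KO and at 12.8 to 130 and 36.0 to 145 CPM in Dnm2SL, with a difference of 2.52 (95% interval 0.46 to 4.58, adjusted p = 0.181). *Rrad*, *Krt18* and *Sox11*, genes of diseased or regenerating muscle, had differences of 1.49 (SE 0.67), 2.40 (SE 1.2) and 0.91 (SE 1.04). *Fgfr4*, a receptor of muscle precursors, rose in Dnm2SL from 0.0805 to 0.592 CPM up to 1.42 to 4.75 CPM (log2 change 2.65, adjusted p = 0.0140) and had a value of 1.35 (adjusted p = 0.0876) in Bin1KO. *Myl3*, a slow myosin light chain, differed by 1.25 (SE 0.54).

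Of the 8 skeletal muscle markers 4 passed below and 0 above 0 (median -0.58, with -0.19 in Dnm2SL and 0.44 in Bin1KO), while 1 passed below 0 with sex as a covariate and 0 among females (median -0.47 in both). With the osteoblast covariate 1 passed above 0 and 0 below (median -0.19). These markers of the main tissue were lower in their difference beside the fast-fiber and glycolysis lists, where matrix, bone and erythroid lists were higher, and their part in those results was not tested. Of 20 triad and excitation-contraction coupling genes 5 passed below and 2 above 0 (median -0.36), with *Rrad* and *Gem* above. Of 13 cell cycle genes 4 passed above 0 (median 1.13), and of 14 autophagy and lysosome genes 4 below and 1 above. Macrophage and leukocyte, cholesterol, and denervation genes had 2 members each above 0, of 15, 22 and 17 tested. Tendon (11), slow fiber (10), satellite cell (13), adipocyte (9), endothelial (10), mitochondrial DNA (7), FoxO (14) and immediate early (10) lists had 1 to 3 members past the threshold, and the neutrophil list (3) had 0.

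**Figure D5:**
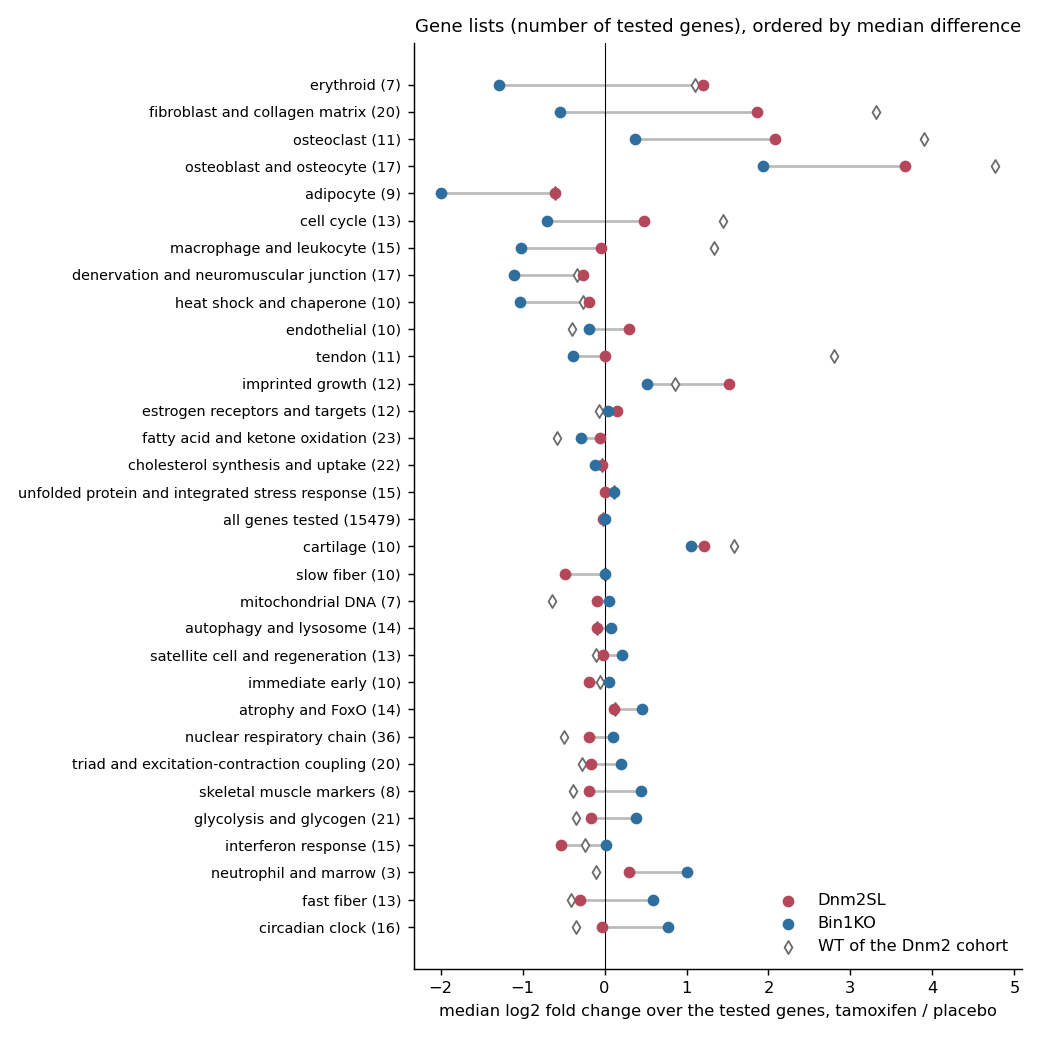
Median log2 fold change with tamoxifen over the tested genes of 31 lists and of all genes, in Dnm2SL, Bin1KO and WT mice of the Dnm2 cohort, ordered by the median difference between the models. Erythroid and matrix genes stand at the top with medians above 0 in Dnm2SL and below 0 in Bin1KO, and circadian and fast-fiber genes at the bottom with the reverse.

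The WT mice of the Dnm2 cohort allow the response to be set beside muscle without either mutation. In WT, 2642 of 14979 genes (17.6%) were higher and 1656 (11.1%) lower with tamoxifen. Of 137 Dnm2SL calls tested in WT, 130 had the same sign there (94.9%), 99 were called in the same direction and 0 in the opposite one. Of 406 Bin1KO calls, 235 had the same sign (57.9%), 98 were called in the same direction and 28 in the opposite one. Calls in WT are to be read beside the 17.6% and 11.1% of all its genes. The share of all genes with the same sign in WT was not counted. Across 14759 genes the WT effect had a Pearson r of 0.73 and a Spearman rho of 0.54 with that of Dnm2SL, 0.18 and -0.09 with that of Bin1KO, and 0.53 and 0.44 with the difference. Of the 16 genes with an adjusted p under 0.1, 14 were tested in WT, 12 of them had the sign of the difference and 6 were called. WT and Dnm2SL mice share cohort and library protocol, and the Bin1 cohort holds no treated WT mice. A response of the cohort and a response of the genotype therefore cannot be told apart. The median of the matrix list was 3.31 in WT, 1.86 in Dnm2SL and -0.54 in Bin1KO, and that of the fast-fiber list was -0.41, -0.30 and 0.59.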

How the data were processed

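RNA of TA muscle was sequenced from poly-A selected, stranded libraries, and the authors deposited raw counts of reads per gene, one table per cohort. Per the submitters' processing notes and methods, reads were trimmed with cutadapt 1.10, aligned to mm39 with STAR 2.5.3 and counted with HTSeq 0.6.1p1. Lines that name no gene (22.7 to 30.8% of counts in Bin1KO mice) were left out. Of 55359 identifiers in both tables, 15479 passed filterByExpr. Counts were tested with edgeR 4.0.16 in R 4.3.3 (TMM, robust quasi-likelihood fit of the 4 mutant groups, adjusted p under 0.05), with DESeq2 1.42.0 as an alternative. The test was run on simulated data first. The members and gene lists were chosen with earlier results of these data known. Genes are named if called with the largest differences, shared between models with the smallest adjusted p, called for or smallest in p within a list, or picked for the disease. Depth was 21520228 to 41940004 reads per mutant, and promoters were read from RefSeq for 11224 of 15476 tested symbols. Alternatives are given in the closing section. The result of 1 gene is not reported here.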

Additional observations from a re-analysis of the deposited data

Results flagged for a closer look

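Of 183 groups of 4 mice, 13 held a mouse far from the other 3 (7.1%), where chance gives about 1 in 20. The gap of the extreme mouse to its nearest neighbor, as a share of the group's range, was compared with Dixon's 95% critical value. In treated Bin1KO mouse 2 it was 1.0 for *Ibsp*, 0.996 for *Mmp13*, 0.923 for *Alpl*, 0.845 for *Bhlhe41* and 0.989 for the sum of the osteoblast markers, all as the highest mouse. Placebo-treated Dnm2SL mouse 4 was highest for *Igtp* (0.990) and for the sum of the interferon genes (0.933), and lowest for *Loxl1* (0.921). The remaining values were 0.876 for *Flrt1* in treated Bin1KO mouse 3, 0.878 for *Ldhd* in treated Dnm2SL mouse 4, 0.852 for *Mmp13* in placebo-treated Bin1KO mouse 1, 0.889 for *Bdh1* in placebo-treated Bin1KO mouse 3 and 0.947 for *Hsp90aa1*, as the lowest, in placebo-treated Dnm2SL mouse 2.

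A tested difference between the models was found for *Gpc4* (0.96) and *AC109619.1* (-3.24).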

How the results depend on the processing

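For the difference between the models (2 genes called), other settings gave 606 calls with DESeq2, 1 with RLE normalization, 5 without a filter on low counts, 0 with the filter of the study, 0 with thinned libraries, 0 with limma voom, 0 with sex as a covariate, and 274 when all 28 mice were fitted. The osteoblast covariate (4) and the fit of females (0) were chosen after seeing the data. Where edgeR called 0, between 2023 and 3033 genes had an unadjusted p under 0.05. Leaving out 1 mouse gave 0 to 1011 calls, with 1011 without treated Bin1KO mouse 2 and 493 without treated Dnm2SL mouse 4. For Dnm2SL (139), the values were 897 with DESeq2, 1055 with all 28 mice, 36 with sex as a covariate, 30 with its 8 mice alone, 16 with the osteoblast covariate, 38 in females and 22 to 1101 without 1 mouse. For Bin1KO (419) they were 1179, 1260 with all 28 mice, 192 with voom, 122 with its 8 mice alone, 1909 with the osteoblast covariate and 125 to 810 without 1 mouse. The WT count (4298) stayed between 3177 and 4479 without 1 mouse. The cause of these shifts was not tested. Same-numbered mice correlated between -0.17 and 0.15, and nothing in the labels pairs them. With the replicate number as a block the counts were 0, 56, 128 and 3913 for the difference, Dnm2SL, Bin1KO and WT. For single named values, 1317 comparisons kept their direction and side of the threshold, 185 lost the call, 59 gained it and none reversed.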

Other observations

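The noncoding transcripts of the imprinted *Dlk1*-*Meg3* region had positive tamoxifen effects in both models, with larger values in Bin1KO. *Meg3*, *Rian* and *Mirg* rose in Bin1KO by 2.59, 2.84 and 3.12 on the log2 scale (edgeR adjusted p = 0.00329, 0.0120 and 0.00109), and *Mirg* rose in Dnm2SL by 2.00 (adjusted p = 0.0275), where *Meg3* and *Rian* had values of 1.58 and 1.69. Their differences were -1.01, -1.15 and -1.12, none of them called by edgeR.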
